A study of Mus musculus with 6 samples.

Results

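Transcript levels of 10 genes that encode repressors of germline genes, out of 24043 gene rows in the deposited table, were examined in mouse embryonic stem (ES) cells. They were chosen by name, as 7 subunits of the Polycomb complex PRC1.6 (Pcgf6, Mga, Max, L3mbtl2, Rnf2, Ring1 and Cbx3) and 3 methyltransferases for lysine 9 of histone H3 (Ehmt1, Ehmt2 and Setdb1), and each symbol matched 1 row. Of the 6 libraries, 3 came from wild-type ES cells and 3 from Q-KO ES cells, which lack all G1 cyclins according to their genotype label. Cells of both groups grew in medium with PD184352 (which blocks MEK), CHIR99021 (which blocks GSK3) and LIF, and RNA was extracted with Trizol. The labels do not say how many clones stand behind either group, or whether replicates were grown separately. How much of the spread that the p-values rest on is technical is therefore unknown. Levels are FPKM, fragments scaled to the length of the gene and to the fragments of the library, so that levels of different genes can be compared per length.

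In ES cells many genes of meiosis and germ cell development have promoters that are held silent. PRC1.6 is brought to them by the MGA and MAX proteins, which bind the E-box sequence as a pair, and by E2F6 with its DP partner. PCGF6 organises the complex, the RING proteins RNF2 and RING1 place ubiquitin on histone H2A, and L3MBTL2 and the heterochromatin protein CBX3 bind histones. EHMT1 (GLP) and EHMT2 (G9a) form a heterodimer that methylates H3K9, and SETDB1 adds further H3K9 methylation. Loss of several of these proteins is known to switch on germline genes in ES cells.

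The sum of FPKM per library ranged from 525134 to 641715, highest in Q-KO replicate 3, and their relative depth, read from the lowest values, ranged from 1 (wild-type replicate 1) to 1.22. The 11573 genes whose mean reached 1 FPKM were tested, and across them pairs of wild-type libraries correlated at r of 0.942 to 0.973 and pairs from different groups at 0.924 to 0.955, in log2(FPKM + 1). Of the 4 tested G1 cyclins 3 fell (0 to 3 when 1 library was left out, with 0 when it was replicate 2 or 3 of Q-KO and 1 when it was replicate 1 of wild-type), while Ccne1 was at 55.9, 53.9 and 37.5 FPKM in wild-type and at 65.3, 73.5 and 87.3 FPKM in Q-KO libraries. A level given for a whole gene does not show whether part of that gene is deleted, so the genotype label was not tested. Q-KO below means the libraries labelled so. The 6 ES cell markers summed to 1561 to 1712 FPKM in wild-type and 1631 to 1860 FPKM in Q-KO libraries. This sum does not show each marker. Zfp42 among them was uneven, at 76.6, 78.9 and 363 FPKM in wild-type and at 177, 75.4 and 74.7 FPKM in Q-KO libraries. The 6 fibroblast markers summed to 1.74 to 3.42 FPKM in wild-type libraries, to 7.05 FPKM in Q-KO replicate 1 and to 2.22 and 2.21 FPKM in the other two. The table lists 5 Y-linked genes at 0 in wild-type replicates 1 and 2 and above 0 in wild-type replicate 3 and in the 3 Q-KO libraries. The wild-type libraries thus differ among themselves in Y-linked transcripts, and the groups are not balanced for them.

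All 10 repressor genes were transcribed in both groups, and none passed the test between them. All 10 passed the filter on low values in both groups. The count was 0 of 10 past an adjusted p of 0.05 in limma, where 4.06% of all genes tested passed. An unadjusted p under 0.05 was found for Max and Cbx3, 2 of 10, where the share of all genes was 21.5%. The groups' ranges did not overlap for 3 of 10, Max (1 of 10 higher in Q-KO, where 18.2% of all genes were) and Mga and Cbx3 (2 of 10 lower, where 9.44% of all genes were), and in either direction 27.7% of all genes did not overlap. The 3 of 10 without overlap in either direction and the 2 of 10 with an unadjusted p under 0.05 are close to the shares of all genes. The log2 changes, Q-KO minus wild-type, were above 0 for 4 and below 0 for 6 genes, from -0.46 to 0.47, with a median of -0.07 beside 0.07 for all genes tested. In simulated libraries the same test recovered 9 of 59 genes changed 1.5-fold and 31 of 41 changed 2-fold, so a missing call does not show that a small difference was absent. The cells were measured in bulk, and fewer cells that express a gene cannot be told apart from less RNA per cell.

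**Figure D1:**
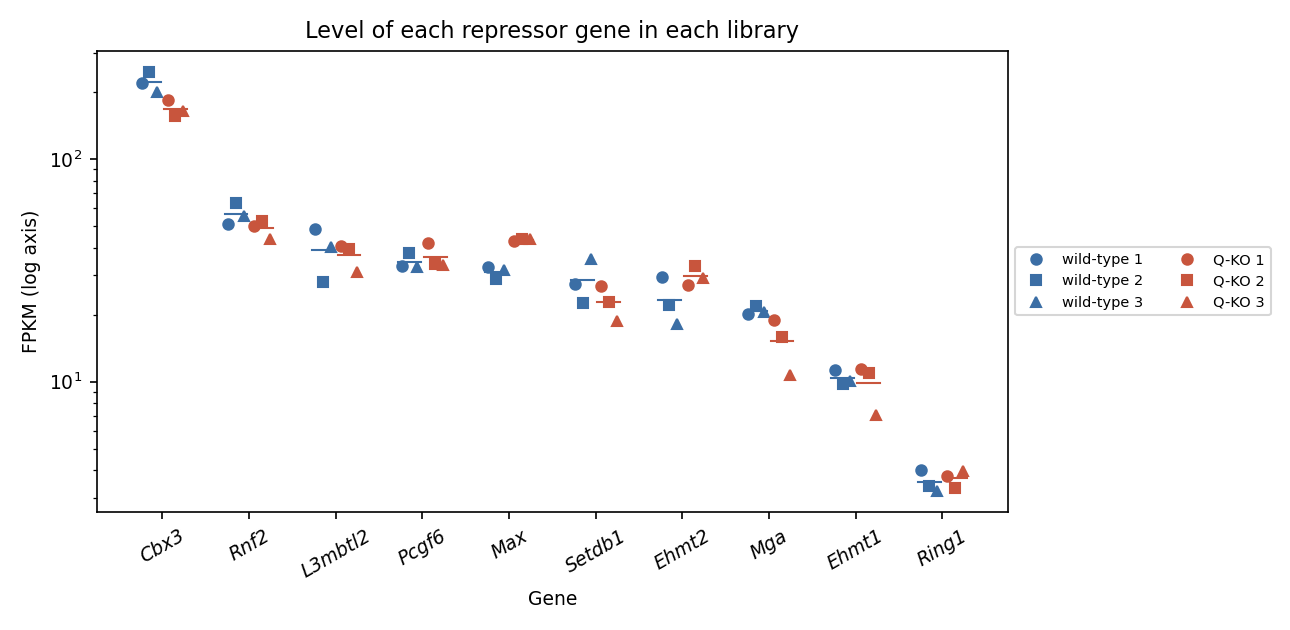
FPKM of the 10 repressor genes in each library on a log axis, ordered by their wild-type mean (lines are group means, n = 3 per group, and symbols are replicates). Cbx3 stands highest, at 155 to 246 FPKM, and Ring1 lowest, at 3.23 to 4.01 FPKM, and the groups separate for Max, Cbx3 and Mga.

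The levels spanned a wide range. In the order of their wild-type means the genes were Cbx3 (222 FPKM), Rnf2 (56.5), L3mbtl2 (38.8), Pcgf6 (34.6), Max (31.1), Setdb1 (28.5), Ehmt2 (23.3), Mga (20.8), Ehmt1 (10.4) and Ring1 (3.55). Cbx3 was above Rnf2, Rnf2 above L3mbtl2, Mga above Ehmt1, and Ehmt1 above Ring1 in 6 of 6 libraries. The wild-type ranges of L3mbtl2 and Pcgf6, of Max and Setdb1, of Setdb1 and Ehmt2, and of Ehmt2 and Mga overlapped, so in wild-type these neighbours do not differ beyond their spread. In Q-KO libraries the ranges of L3mbtl2 and Pcgf6 still overlapped and those of Mga and Ehmt1 came to overlap, while Max lay wholly above Pcgf6 and Setdb1, and Ehmt2 wholly above Setdb1 and Mga. In the Q-KO means Max moved from rank 5 to 3 and Ehmt2 from rank 7 to 6, past Setdb1, while Cbx3, Rnf2, Mga, Ehmt1 and Ring1 kept their ranks.

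Of the pair that binds DNA in PRC1.6, the mean of Max was higher and that of Mga lower in Q-KO libraries, and neither passed. Max, which encodes the common partner of the MYC, MXD and MGA proteins, had 32.7, 28.8 and 31.7 FPKM in wild-type replicates 1 to 3, and Q-KO replicates 1 to 3 had 42.8, 43.5 and 43.5 FPKM. Every Q-KO library was above every wild-type library, and the Q-KO libraries lay close together (43.3 ± 0.407 FPKM against 31.1 ± 2.01 FPKM, mean ± SD, n = 3 per group). The log2 change on the log2(FPKM + 1) scale was 0.47 (SE 0.12, 95% interval 0.20 to 0.74, limma adjusted p = 0.0706). It passed with no filter on low values (limma adjusted p = 0.0423) and in no other of the 15 alternative fits (adjusted p up to 0.275, without Q-KO replicate 2). By the root mean square difference of log2(FPKM + 1), centred on each wild-type mean over the 6 libraries, the 3 tested genes closest to Max were Pomgnt1 (0.037), Nsun4 (0.0423) and Pithd1 (0.0446), whose log2 changes were 0.47, 0.43 and 0.47.

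Mga, which encodes a large scaffold with a T-box and a region that pairs with MAX, was at 20.1, 21.8 and 20.5 FPKM in wild-type and at 19.0, 15.9 and 10.7 FPKM in Q-KO libraries. The wild-type libraries agreed closely, whereas Q-KO replicate 3 was far below Q-KO replicate 1. The log2 change was -0.46 (SE 0.20, 95% interval -0.92 to 0.00097, limma adjusted p = 0.233), and without Q-KO replicate 3 it was -0.24. That library was the lowest of the Q-KO group for 6 of the 10 repressor genes, beside 40.7% of all genes tested, and had the highest sum of FPKM; the part of the latter in these values was not tested.

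**Figure D2:**
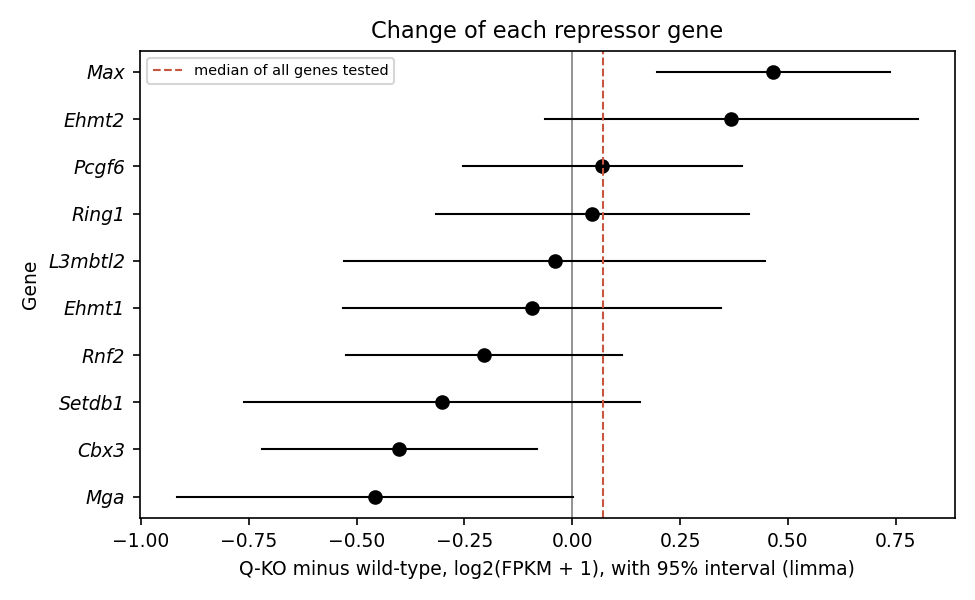
Log2 change of each repressor gene (points, Q-KO minus wild-type on the log2(FPKM + 1) scale) with its 95% interval from limma (bars), n = 3 per group. The interval lies above 0 for Max and below 0 for Cbx3, the dashed line marks the median of all genes tested (0.07), and none of the 10 passed after adjustment.

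The PCGF and RING subunits overlapped between the groups. Pcgf6 was at 33.1, 37.7 and 32.8 FPKM in wild-type and at 42.0, 33.8 and 33.5 FPKM in Q-KO libraries. Q-KO replicate 1 was the highest of the 6, and the other two Q-KO libraries lay among the wild-type values. The log2 change was 0.07 (SE 0.14, 95% interval -0.25 to 0.39, limma adjusted p = 0.814), and it turned to -0.06 with median-of-ratios scaling. Pcgf6 was the most abundant of the 6 Pcgf genes, which define the different PRC1 complexes, and made up 37.1% ± 1.11 of their summed FPKM in wild-type and 37.1% ± 3.59 in Q-KO libraries (SD, n = 3 per group, exact permutation p = 1, two-sided). The smallest p that 3 against 3 libraries allow is 0.1.

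Rnf2, the gene of the ubiquitin ligase RING1B, was at 51.0, 63.3 and 55.2 FPKM in wild-type and at 50.2, 52.7 and 43.6 FPKM in Q-KO libraries. The groups overlapped, with Q-KO replicate 3 lowest and wild-type replicate 2 highest, and the log2 change was -0.20 (SE 0.14, 95% interval -0.52 to 0.12, limma adjusted p = 0.438). Leaving out wild-type replicate 2 made it -0.12, leaving out Q-KO replicate 3 made it -0.13, and median-of-ratios scaling made it -0.33. Its paralog Ring1, which encodes RING1A, was at 4.01, 3.41 and 3.23 FPKM in wild-type and at 3.79, 3.33 and 3.96 FPKM in Q-KO libraries. These values were interleaved, with a log2 change of 0.05 (SE 0.16, 95% interval -0.32 to 0.41, limma adjusted p = 0.896) that was -0.06 with median-of-ratios scaling and -0.07 with quantile normalization. Rnf2 gave 94.0% ± 1.15 of the summed FPKM of the pair in wild-type and 92.9% ± 1.19 in Q-KO libraries (SD, n = 3 per group, exact permutation p = 0.3, two-sided). The lowest of these shares was 91.7% and the highest 94.9%. Rnf2 overlaps Trmt1l on the other strand (6.86 to 13.7 FPKM), and strand-specific counting was not stated, so part of its value is uncertain.

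Of the 2 histone-binding subunits, Cbx3 was lower in Q-KO libraries and L3mbtl2 overlapped, and neither passed. Cbx3, the gene of HP1 gamma, was at 219, 246 and 199 FPKM in wild-type and at 183, 155 and 164 FPKM in Q-KO libraries. Each Q-KO library was below each wild-type library, with means of 167 ± 14.1 and 222 ± 23.6 FPKM (SD, n = 3 per group). The log2 change was -0.40 (SE 0.14, 95% interval -0.72 to -0.08, limma adjusted p = 0.149), and it remained below 0 in all 15 alternative fits (-0.53 to -0.25). Cbx3 has 8 pseudogenes named after it in the GENCODE annotation, so its value is uncertain where reads could be shared. The other HP1 genes, Cbx1 and Cbx5, are given with the H3K9 genes below.

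L3mbtl2, whose MBT repeats bind methylated histones, was at 48.4, 27.9 and 40.2 FPKM in wild-type and at 40.8, 39.2 and 31.1 FPKM in Q-KO libraries. The wild-type libraries alone covered the whole Q-KO range. The log2 change was -0.04 (SE 0.21, 95% interval -0.53 to 0.45, limma adjusted p = 0.933), and it turned to 0.13 without wild-type replicate 1 and to 0.08 without Q-KO replicate 3. L3mbtl2 overlaps Chadl on the other strand, which was at 0.548 to 1.25 FPKM.

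Within the G9a heterodimer the mean of Ehmt2 was higher and that of Ehmt1 slightly lower in Q-KO libraries, and neither passed. Ehmt2, the gene of G9a, was at 29.7, 22.0 and 18.2 FPKM in wild-type and at 27.2, 33.1 and 29.3 FPKM in Q-KO libraries. Wild-type replicate 1 lay inside the Q-KO range and the other two wild-type libraries below it. The log2 change was 0.37 (SE 0.19, 95% interval -0.06 to 0.80, limma adjusted p = 0.301). In a fit that accounts for Y-linked transcripts, and so sets the Q-KO libraries against wild-type replicate 3 alone, it was 0.68 (limma adjusted p = 0.111), and without wild-type replicate 3 it was 0.21.

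Ehmt1, the gene of GLP, was at 11.3, 9.72 and 10.1 FPKM in wild-type and at 11.4, 11.0 and 7.11 FPKM in Q-KO libraries. Q-KO replicate 3 was the lowest and the other five lay within 9.72 to 11.4 FPKM, and without it the log2 change of -0.09 (SE 0.19, 95% interval -0.53 to 0.35, limma adjusted p = 0.817) was 0.10. Ehmt1 made up 27.6%, 30.6% and 35.7% of the summed FPKM of the pair in wild-type and 29.5%, 24.9% and 19.5% in Q-KO libraries. The difference of -6.65 percentage points had an exact permutation p = 0.2 (two-sided, n = 3 per group), and the groups overlapped. In every library Ehmt2 was thus the more abundant transcript of the pair.

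Setdb1, whose product is brought to its targets with TRIM28 and ATF7IP, was at 27.5, 22.5 and 35.4 FPKM in wild-type and at 26.8, 22.8 and 18.7 FPKM in Q-KO libraries. Wild-type replicate 3 was the highest and Q-KO replicate 3 the lowest, and the other four lay between 22.5 and 27.5 FPKM. The log2 change was -0.30 (SE 0.20, 95% interval -0.76 to 0.16, limma adjusted p = 0.425), and -0.14 without wild-type replicate 3 or -0.17 without Q-KO replicate 3. It was -0.45 without wild-type replicate 2 and -0.63 (limma adjusted p = 0.156) in the fit that accounts for Y-linked transcripts. Setdb1 overlaps Cers2 on the other strand, which was also highest in wild-type replicate 3 (36.8 FPKM, against 23.5 to 28.1 FPKM in the other libraries). The part of this overlap in the value of Setdb1 was not tested.

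**Figure D3:**
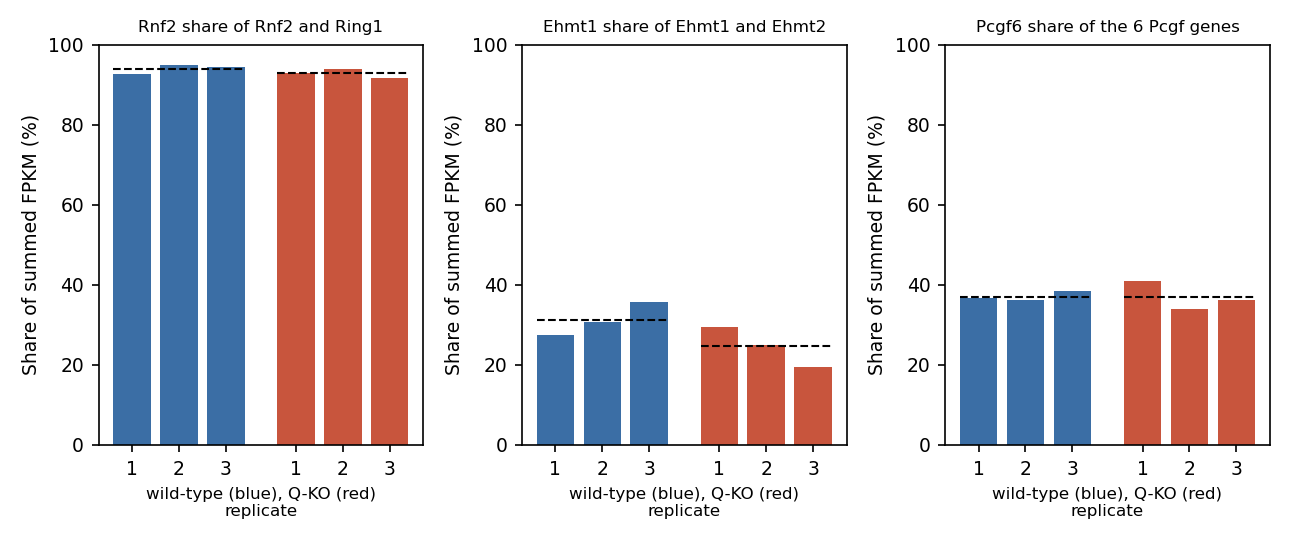
Share of the summed FPKM taken by Rnf2 within Rnf2 and Ring1, by Ehmt1 within Ehmt1 and Ehmt2, and by Pcgf6 within the 6 Pcgf genes, in each library (bars, blue for wild-type and red for Q-KO) with the group means (dashed lines). Rnf2 holds 91.7% to 94.9% throughout, and the Ehmt1 share is 19.5% in Q-KO replicate 3 and 35.7% in wild-type replicate 3.

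Partners of these repressors were read from lists that cover each complex. Of the 8 other PRC1.6 partners 0 passed limma's test, where 4.06% of all genes did. Of the same 8, 0 had an unadjusted p under 0.05, where 21.5% of all genes had one. E2f6, the repressive E2F of the complex, was at 8.50, 12.4 and 7.94 FPKM in wild-type and at 10.6, 10.7 and 9.99 FPKM in Q-KO libraries, a log2 change of 0.13 (SE 0.18, limma adjusted p = 0.725). Over the 15 alternative fits it lay between 0.01 (median-of-ratios scaling) and 0.35 (the Y-linked fit), with 0.02 without wild-type replicate 3 and 0.31 without wild-type replicate 2. Hdac1, a histone deacetylase and the most abundant of these partners, was at 172 ± 30.7 and 220 ± 17.5 FPKM (SD, n = 3 per group, limma adjusted p = 0.243). Of 20 other PRC1 subunits 0 passed and 3 had an unadjusted p under 0.05, where 21.5% of all genes had one. The group ranges did not overlap for 7 of the 20 (5 higher and 2 lower in Q-KO), beside 27.7% of all genes. Pcgf5, which belongs to another PRC1 complex, was at 5.33, 7.35 and 2.70 FPKM in wild-type and at 7.93, 7.94 and 7.71 FPKM in Q-KO libraries. Its log2 change was 0.61 (limma adjusted p = 0.250) and 0.28 without wild-type replicate 3. In the Y-linked fit, which sets the Q-KO libraries against wild-type replicate 3 alone, it was 1.26. Changes of the 20 were above 0 for 10 and below 0 for 10, from -0.52 (Auts2) to 0.65 (Scmh1). Scmh1, named like Pcgf5 after its values were seen, had a limma adjusted p of 0.0611. It was at 3.76, 4.17 and 3.79 FPKM in wild-type and at 7.12, 7.27 and 5.74 FPKM in Q-KO libraries. The most abundant of the 20 was Usp7, a deubiquitinase, at 90.8 ± 3.86 and 80.5 ± 7.39 FPKM (limma adjusted p = 0.461). Of 20 other H3K9 methylation genes 0 passed and 2 had an unadjusted p under 0.05, beside 4.06% and 21.5% of all genes. The most abundant was Trim28, the co-repressor that brings SETDB1 to its targets, at 330 ± 78.1 and 347 ± 25.7 FPKM (limma adjusted p = 0.797). Named after their values were seen, the HP1 genes Cbx1 and Cbx5 had log2 changes of -0.41 (limma adjusted p = 0.134) and -0.11 (0.738), beside -0.40 for Cbx3.

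In a list of the MAX network, with the MYC, MXD and MNT genes and the MAX-like gene Mlx, whose product does not pair with MAX, 1 of 9 tested genes rose and 0 fell, where 3.04% of all genes rose and 1.02% fell. Mxd4, whose product pairs with MAX as a repressor of MYC targets, was at 1.24, 1.96 and 1.09 FPKM in wild-type and at 5.22, 8.14 and 5.04 FPKM in Q-KO libraries. Its groups were well apart, with a log2 change of 1.55 (SE 0.23, limma adjusted p = 0.0141). The call was lost without wild-type replicate 1, Q-KO replicate 2 or Q-KO replicate 3 (limma adjusted p 0.0652, 0.0868 and 0.0543). The most abundant gene of this list was Mycn, the N-MYC gene, at 35.4 ± 7.77 and 26.3 ± 2.29 FPKM (SD, n = 3 per group, log2 change -0.40, limma adjusted p = 0.238).

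**Figure D4:**
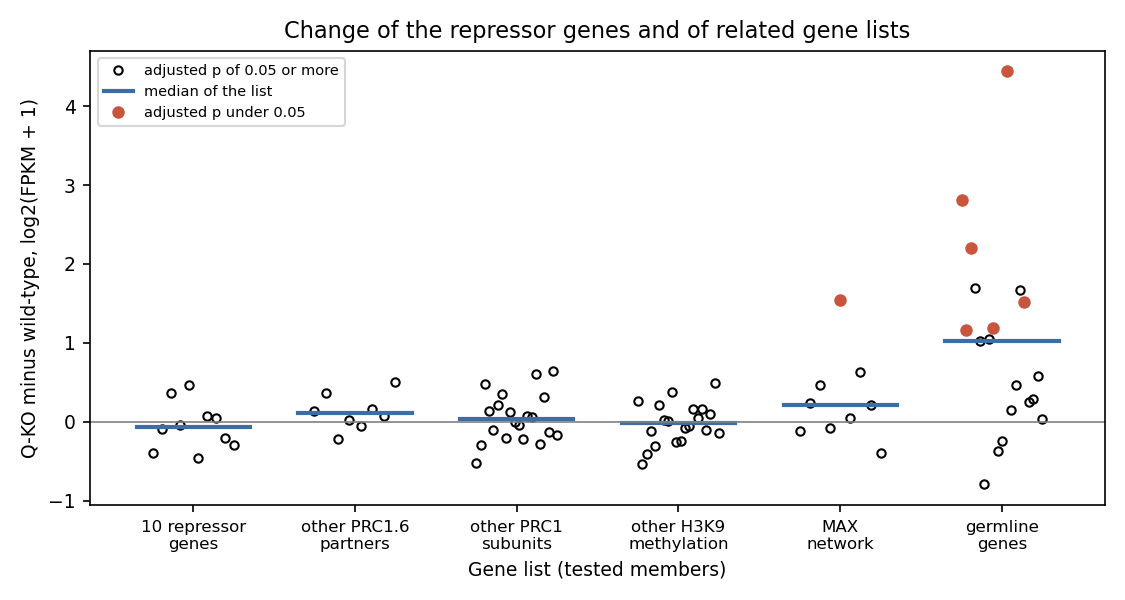
Log2 change (Q-KO minus wild-type, log2(FPKM + 1) scale) of each tested gene in 6 lists, with the median of each list (blue lines) and genes with a limma adjusted p under 0.05 filled. The 10 repressor genes lie between -0.46 and 0.47 with none filled, and of the 6 filled germline genes 4 had a wild-type mean under 1 FPKM and entered the test through their Q-KO values.

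Beside these repressors, germline genes that they are known to silence were read in the same fit. The list was drawn up with earlier results of these libraries known, and its direction is no independent evidence. Of 26 listed genes 25 were in the table and 19 were tested. Of these 19, 6 rose while 0 fell, where 3.04% of all genes rose and 1.02% fell. Of the 6, 4 (Asz1, Taf7l, Brdt and Slc25a31) had a wild-type mean under 1 FPKM and reached the filter only through the Q-KO libraries, so that they had to differ, and the count supports nothing about the list. The other 2, Stra8 and D1Pas1, had wild-type means above 1 FPKM. Leaving out wild-type replicate 1, Q-KO replicate 2 or Q-KO replicate 3 gave a count of 1, leaving out Q-KO replicate 1 gave 2, and leaving out wild-type replicate 2 gave 9. Stra8, required for entry into meiosis, was at 2.67, 36.9 and 1.70 FPKM in wild-type and at 107, 167 and 210 FPKM in Q-KO libraries, a log2 change of 4.44 (limma adjusted p = 0.0343). Its call was lost in 6 of the 15 alternative fits, those with no filter (0.0954) or a robust variance (0.137) and those without wild-type replicate 1 or any 1 Q-KO replicate (limma adjusted p 0.087 to 0.171). Asz1, a gene of the piRNA pathway, was at 0.334, 1.23 and 0.225 FPKM in wild-type and at 9.77, 10.5 and 9.06 FPKM in Q-KO libraries, a log2 change of 2.81, given as a description because of how it entered the test. D1Pas1, whose value is uncertain because it is a close copy of Ddx3x, had a log2 change of 2.20 (limma adjusted p = 0.0215), and its call was lost with no filter (0.0672) and without wild-type replicate 1 or any 1 Q-KO replicate (limma adjusted p 0.0631 to 0.127). Taf7l, a TFIID subunit of male germ cells, had one of 1.52, likewise a description. Dazl, a germ cell RNA-binding protein, was at 19.5, 129 and 17.6 FPKM in wild-type and at 90.6, 126 and 143 FPKM in Q-KO libraries (limma adjusted p = 0.193), and Ddx4, the germ cell helicase VASA, had a log2 change of 1.02 (limma adjusted p = 0.113). Changes were above 0 for 16 of the 19, including the 4 that entered through Q-KO values, and below 0 for 3. Among all genes tested 6861 were above 0 and 4712 below. The 3 below 0 were Hormad1, Smc1b and Stag3, with log2 changes of -0.79 (limma adjusted p = 0.195), -0.38 and -0.24. Hormad1 was at 34.1, 68.4 and 25.3 FPKM in wild-type and at 23.5, 20.5 and 22.3 FPKM in Q-KO libraries.

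**Figure D5:**
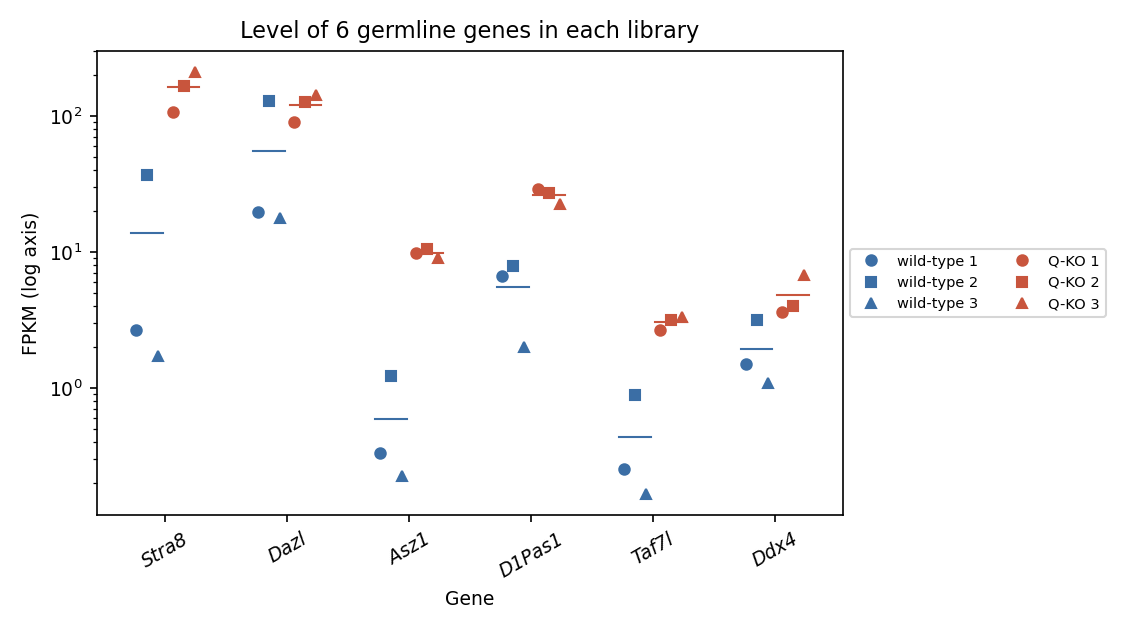
FPKM of 6 germline genes in each library on a log axis (lines are group means, n = 3 per group, and symbols are replicates). Wild-type replicate 2 lies above the other wild-type libraries for each of the 6 genes, and for Dazl, at 129 FPKM, it is inside the range of the Q-KO libraries.

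The sequences that MGA with MAX and E2F6 with DP are known to bind were looked for in promoter windows of 300 bases, 250 before to 50 after the start, from RefSeq on build GRCm38.p6. The E-box CACGTG, which reads the same on both strands, and the E2F core TCCCGC were searched on both strands (the core reads GCGGGA where it lies on the other one), and neither motif contains the other. All 10 repressor genes matched, with 12 windows. The E-box was found in 3 of these 12 windows, those of Max and Ehmt2, and the E2F core in 3, those of Rnf2, Ehmt1 and Ehmt2, where 7.15% and 20.0% of all 32851 windows hold them. Of the germline genes 24 matched, with 28 windows, of which 13 held the E-box, 13 the E2F core and 8 both, where 1.99% of all windows hold both. The list was chosen as genes that these complexes are known to silence, so its motif shares are no independent evidence. Windows of the same gene can overlap, as those of Hormad1 do, so a motif can be counted more than once. By gene, 11 of the 24 held the E-box and 12 the E2F core, beside 2187 and 5959 of all 27025 genes. The median GC content was 71.0% in windows of the repressor genes, 60.0% in those of the germline genes and 52.7% in all windows. Of the germline genes plotted above, neither motif was found in the windows of Stra8, Asz1 and Dazl. The windows below are those of the repressor genes with an E-box and of 2 of the named germline genes with one, shown to let the motifs be read in place; capitals mark E-boxes and E2F cores. A match is a description of letters and not of binding. The window of Max is chr12:76962199-76962498 (minus strand), that of Ehmt2, the first of its 2, is chr17:34898224-34898523 (plus strand), that of Ddx4 is chr13:112652261-112652560 (minus strand) and that of Taf7l is chrX:134476441-134476740 (minus strand).
Max: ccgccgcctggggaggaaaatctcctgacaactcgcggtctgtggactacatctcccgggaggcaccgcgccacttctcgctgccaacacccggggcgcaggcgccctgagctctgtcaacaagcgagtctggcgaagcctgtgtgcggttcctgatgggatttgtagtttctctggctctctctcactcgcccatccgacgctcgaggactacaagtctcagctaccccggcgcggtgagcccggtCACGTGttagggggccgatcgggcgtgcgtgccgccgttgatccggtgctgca
Ehmt2: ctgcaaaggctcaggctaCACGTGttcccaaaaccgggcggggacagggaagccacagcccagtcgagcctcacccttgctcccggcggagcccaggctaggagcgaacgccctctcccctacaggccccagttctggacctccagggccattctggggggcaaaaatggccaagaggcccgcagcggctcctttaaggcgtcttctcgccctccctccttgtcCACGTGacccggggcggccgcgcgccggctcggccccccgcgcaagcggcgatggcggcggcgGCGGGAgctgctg
Ddx4: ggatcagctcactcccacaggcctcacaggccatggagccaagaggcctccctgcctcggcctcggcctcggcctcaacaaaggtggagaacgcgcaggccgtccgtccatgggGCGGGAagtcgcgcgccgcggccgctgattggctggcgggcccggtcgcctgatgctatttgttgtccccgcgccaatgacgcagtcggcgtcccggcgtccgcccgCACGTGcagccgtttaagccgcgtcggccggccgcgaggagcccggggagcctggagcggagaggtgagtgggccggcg
Taf7l: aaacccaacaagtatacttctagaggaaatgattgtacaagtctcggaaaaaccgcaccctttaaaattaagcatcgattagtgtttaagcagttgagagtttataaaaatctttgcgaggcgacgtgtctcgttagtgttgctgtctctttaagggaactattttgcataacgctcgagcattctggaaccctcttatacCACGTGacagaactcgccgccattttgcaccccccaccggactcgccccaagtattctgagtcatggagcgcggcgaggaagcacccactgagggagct
The E-box of Max begins 3 bases before its start site, and Ehmt2 has an E-box in both of its windows. A link between the motifs and the levels of these genes was not tested.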

How the data were processed

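RNA-seq was done on 3 wild-type and 3 Q-KO libraries. The values deposited by the authors were FPKM, in 1 table with a column for each library. The submitters' processing notes name build mm9, STAR 2.5, Cufflinks, bcl2fastq 2.16 and CASAVA, with no role or order stated. The annotation, strand setting and read depth were not given in the sources used here, so no counting interval was computed. Relative depth came from the preferred ratio of the lowest values.

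After 1 stray header row was dropped, 24043 gene rows remained. The 11573 genes whose mean over the 6 libraries reached 1 FPKM were compared as log2(FPKM + 1) with limma 3.58.1 (R 4.3.3), with a variance trend on intensity. Tests were two-sided, p-values were adjusted by Benjamini-Hochberg over all genes tested, and the threshold was 0.05. The test and the depth estimate were tested on simulated data. Shares were compared by an exact permutation test. Groups came from the sample titles. No column was left unmapped.

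The repressor genes, the lists and the tests were chosen with earlier results of these data known. The text names all 10 repressor genes, Dazl, Stra8, Ddx4 and E2f6, and of each further list the most abundant gene and up to 4 called genes, those that changed most; other genes were named after their values were seen. Alternatives were another pseudocount, other filters, scalings and variance models, a replicate block, a term for Y-linked transcripts, and leaving out each library.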

Additional observations from a re-analysis of the deposited data

How the results depend on the processing

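The count of repressor genes past the threshold was 0 in 14 of 15 alternatives and 1, Max, with no filter on low values; it was 0 in each fit that left out a library. The count of all genes past the threshold went from 470 to 266 with a minimum mean of 5 FPKM, to 894 with the term for Y-linked transcripts and to 28 to 566 when 1 library was left out, and that of germline genes from 6 to 3 with that minimum (fewer genes tested) and to 1 to 9 when 1 library was left out. Otherwise the causes were not tested. The log2 change of Pcgf6 turned from 0.07 to -0.058 with median-of-ratios scaling, and that of Ring1 from 0.05 to -0.056 with this scaling and to -0.070 with quantile normalization. With 1 library left out the change ranged from -0.034 to 0.13 for Pcgf6, from -0.25 to 0.13 for L3mbtl2, from -0.0034 to 0.12 for Ring1 and from -0.20 to 0.10 for Ehmt1. The other 6 repressor genes kept their direction in all 15 alternatives, and Ring1 was below the minimum of 5 FPKM. Median-of-ratios scaling moved the median change of all genes from 0.07 to -0.04, and relative to the unscaled median Max changed by 0.39, Mga by -0.53 and Cbx3 by -0.47. The share of calls that were rises was 74.9%, against 55.7% with that scaling and 54.0% after quantile normalization. With 1 library left out the shares differed by -1.77 to -0.51 points for Rnf2, -9.07 to -4.08 points for Ehmt1 and -1.97 to 1.55 points for Pcgf6.

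With the replicate number as a block, 0 repressor genes, 6 germline genes and 333 of all genes passed. Deviations of same-numbered libraries from their group means had r of -0.0282, 0.0121 and 0.0218 across genes, and no library correlated best with its own number, so the numbers were not taken to pair the libraries. The read depth behind these values is unknown, which limits what can be said of small differences.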
